A study of Homo sapiens and Homo sapiens
Mus with 12 samples.

Results

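Markers used to sort bladder cancers into molecular subtypes, namely *CD44*, *L1CAM*, *UPK1A* and *COL17A1*, were followed through all libraries of a *CDH11* knockdown (KD) study in UM-UC-3 cells. The genes were taken by symbol, 4 of 21479 genes listed for cultured cells and 4 of 26813 human genes listed for xenograft tumors. They had been picked from a panel of 30 subtype markers because they passed the low-count filter in cultured cells and because their levels differed between the hairpins there. The cultured levels by hairpin are therefore given below as a description with no test. *COL17A1* passed the filter but did not show such a difference in the values below.

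UM-UC-3 is an established human bladder cancer line, and every sample came from this 1 line. Cells were infected with lentivirus carrying GFP and either a nonsilencing hairpin (shCtrl, the samples whose treatment label reads WT) or 1 of 2 hairpins against *CDH11*, a mesenchymal cadherin (sh#1 and sh#2), and GFP-positive cells were sorted. Cultured cells gave 3 libraries each of shCtrl, sh#1 and sh#2, with 2273182 to 2777019 counts per library. Xenograft tumors gave 5 each, grown for 4 weeks from cells injected under the skin in Matrigel in 5-week-old male BALB/cAJcl-nu/nu mice, which lack mature T cells, and held 414849 to 1248977 human counts each. Every group thus carried an integrated vector and GFP, sorted pools were compared rather than clones, and the labels do not say that replicate libraries came from separate cultures, so p-values measure the spread between these libraries. The labels give the 5 tumors of a group under 1 library name and name no batch, so any step shared within a group cannot be told apart from the hairpin in tumors. In bulk RNA, fewer cells expressing a gene and less RNA per cell cannot be told apart either.

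*CD44* encodes the main cell surface receptor for hyaluronan, which is spliced into many forms and marks basal urothelial cells and basal cancers. *COL17A1* encodes collagen XVII, a transmembrane collagen of hemidesmosomes, the junctions that fix basal cells to the basement membrane. *UPK1A* encodes uroplakin Ia, a tetraspanin of the plaques that cover the luminal face of umbrella cells, and is a luminal marker. *L1CAM* encodes a neural adhesion molecule of the immunoglobulin superfamily that many carcinomas also make, and stands among the immune markers of the panel.

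The study reported *CDH11* mRNA and protein as significantly lower in its cultured knockdown cells than in shCtrl cells. In the cultured libraries read here, the targeted gene was barely counted. *CDH11* had 2, 4 and 4 counts in shCtrl, 0, 0 and 1 in sh#1 and 1, 2 and 0 in sh#2. These were too few for the filter. In tumors its fitted log2 fold change against shCtrl was -1.67 (SE 0.40) for sh#1, a fall at a Benjamini-Hochberg q value of 0.0260 (edgeR, quasi-likelihood F test). For sh#2 it was -0.73 (SE 0.35) with a q value of 0.347, which did not pass the threshold of 0.1 used for tumors.

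Promoter sequence was read for all 4 genes from RefSeq windows of build GRCh38.p14, which run from 250 bases before a RefSeq start of the gene to 50 after it. It is shown because *CD44* and *L1CAM* moved together across the cultured libraries, as described below, while *COL17A1* did not. *UPK1A* moved with *L1CAM* as well (Pearson r of log2 CPM 0.922). The genes were chosen for differences between the hairpins in these libraries, so no link between motifs and levels is read. Each stretch is printed 5′ to 3′ on the strand of its gene, with matches to 6 short motifs in capitals. Both strands were searched. The core of a hypoxia response element was read as ACGTG. The E-box of MYC and related factors, which contains that core, was read as CACGTG. The site of AP-1 was read as TGACTCA. The box bound by Sp1 was read as GGGCGG. The site of TEAD factors was read as CATTCC. The E-box bound by ZEB and SNAI factors was read as CACCTG. For *CD44*, 30 bases at chr11:35138998-35139027 on the plus strand are shown, since exons of other *CD44* transcripts in GENCODE cover the whole window. For *L1CAM*, 74 bases at chrX:153876040-153876113 on the minus strand are shown, which no *L1CAM* exon covers. The RefSeq starts used for *CD44* and *L1CAM* lie inside the spans that GENCODE gives these genes (below), since GENCODE holds transcripts that start farther upstream, and a second, overlapping RefSeq window of *L1CAM* is not shown. The whole 250 bases before the start are shown for *UPK1A* at chr19:35666267-35666516 on the plus strand and for *COL17A1* at chr10:104085881-104086130 on the minus strand.
CD44: acgGGGCGGgggcagaggggcCCGCCCggg
L1CAM: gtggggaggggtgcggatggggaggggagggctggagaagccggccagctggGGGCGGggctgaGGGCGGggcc
UPK1A: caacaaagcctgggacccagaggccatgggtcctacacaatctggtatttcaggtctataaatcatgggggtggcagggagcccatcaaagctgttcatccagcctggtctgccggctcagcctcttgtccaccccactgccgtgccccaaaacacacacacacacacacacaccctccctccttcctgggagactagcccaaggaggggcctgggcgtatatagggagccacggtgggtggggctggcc
COL17A1: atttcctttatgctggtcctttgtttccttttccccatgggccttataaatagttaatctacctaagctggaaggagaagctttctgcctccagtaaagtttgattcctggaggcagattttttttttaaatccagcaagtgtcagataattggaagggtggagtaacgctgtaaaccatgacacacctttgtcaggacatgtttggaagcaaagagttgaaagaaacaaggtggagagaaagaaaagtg

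Both *CD44* and *L1CAM* held 2 GGGCGG boxes in the stretches shown. *CD44* also held 1 ACGTG, written as CACGT on the gene's strand, elsewhere in its 250 bases. None of the 6 motifs was found before the start of *UPK1A* or *COL17A1*. Such matches are common: of 35116 RefSeq promoter windows of 300 bases, 45.0% held GGGCGG, 21.4% ACGTG, 20.6% CACCTG, 14.0% CATTCC, 7.26% CACGTG and 4.95% TGACTCA. The 250 bases were 62.4% G and C in both *CD44* and *L1CAM* and 60.0% in *UPK1A*, near the median of 58.0% over all promoters, and 40.4% in *COL17A1*. A match describes the letters and is not a bound site, and a missing match says only that these letters are not in the window.

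In GENCODE v44 on hg38, *CD44* (ENSG00000026508) spans chr11:35138882-35232402 on the plus strand, with 38 annotated transcripts. *L1CAM* (ENSG00000198910) spans chrX:153861514-153886173 on the minus strand, with 16 transcripts. *UPK1A* (ENSG00000105668) spans chr19:35666517-35678481 on the plus strand, with 2 transcripts, and *COL17A1* (ENSG00000065618) spans chr10:104031286-104085880 on the minus strand, with 10. *CD44*, *L1CAM* and *UPK1A* each overlap an antisense gene, *CD44-AS1*, *L1CAM-AS1* and *UPK1A-AS1*, and *CD44* also overlaps *CD44-DT* on the other strand. On their own strand, *L1CAM* overlaps a second protein-coding gene, *CD44* a long noncoding RNA gene and *COL17A1* the microRNA gene *MIR936*. Whether the counting used strand is not given in the sources used here, so reads of antisense partners cannot be told apart from reads of the markers, and reads of same-strand partners could not be even with strand.

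In cultured cells *CD44*, *L1CAM* and *UPK1A* were higher in sh#2 than in both other groups, *CD44* and *L1CAM* were lower in sh#1 than in shCtrl, and *COL17A1* was alike in range in all groups. *CD44* had 984, 992 and 1042 counts in shCtrl, 817, 796 and 1046 in sh#1, and 1162, 1062 and 1147 in sh#2. As CPM after TMM normalization, that is, as counts scaled to library size (normalized CPM), these were 387, 407 and 397 in shCtrl, 335, 346 and 368 in sh#1, and 542, 507 and 559 in sh#2. The 3 groups of *CD44* values did not overlap, with sh#1 below shCtrl and sh#2 above it. Their means were 397 ± 9.7 (SD, n = 3) in shCtrl, 350 ± 17.1 in sh#1 and 536 ± 26.1 in sh#2, and the log2 fold change against shCtrl was -0.18 (SE 0.06) for sh#1 and 0.43 (SE 0.06) for sh#2.

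*L1CAM* followed the same order with wider steps. It had 51, 49 and 65 counts in shCtrl, 31, 31 and 54 in sh#1, and 138, 139 and 158 in sh#2. The normalized CPM were 20.1, 20.1 and 24.8 in shCtrl, 12.7, 13.5 and 19.0 in sh#1, and 64.4, 66.4 and 76.9 in sh#2. Again no group overlapped another, although the third sh#1 library lay close under the lowest shCtrl library. The mean level was 21.6 ± 2.71 (SD, n = 3) in shCtrl, 15.1 ± 3.45 in sh#1 and 69.2 ± 6.74 in sh#2, so that sh#2 stood 3.20 times above shCtrl. The fitted log2 fold change was -0.51 (SE 0.19) for sh#1 and 1.67 (SE 0.15) for sh#2. Without the third sh#1 library, that of sh#1 was -0.72.

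*UPK1A* was close to absent outside sh#2. It had 1, 0 and 5 counts in shCtrl, 1, 1 and 6 in sh#1, and 20, 16 and 19 in sh#2. In normalized CPM, shCtrl held 0.39, 0 and 1.91, sh#1 held 0.41, 0.43 and 2.11, and sh#2 held 9.33, 7.65 and 9.25. The shCtrl and sh#1 libraries overlapped, with 0 to 6 counts each, and the sh#2 libraries lay above all of them. A floor of 3 counts stood for 1.06 to 1.46 normalized CPM in the cultured libraries. Mean levels were 0.766 ± 1.01 (SD, n = 3), 0.986 ± 0.98 and 8.74 ± 0.95, in that order. The log2 fold change of sh#2 against shCtrl was 3.39 (SE 0.53) over 6 counts in all shCtrl libraries, 5 of them in 1 library. Without the third shCtrl library, which held those 5, it was 5.12, more than 1.5 times as large.

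*COL17A1* had 33, 51 and 39 counts in shCtrl, 32, 31 and 46 in sh#1, and 51, 28 and 30 in sh#2. The normalized CPM spanned 13.0 to 20.9 (shCtrl), 13.1 to 16.2 (sh#1) and 13.4 to 23.8 (sh#2). All 3 groups overlapped. The log2 fold change was -0.17 (SE 0.22) for sh#1 and 0.10 (SE 0.22) for sh#2, and each changed sign when 1 library was left out, to 0.043 without the second shCtrl library for sh#1 and to -0.21 without the first sh#2 library for sh#2.

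**Figure D1:**
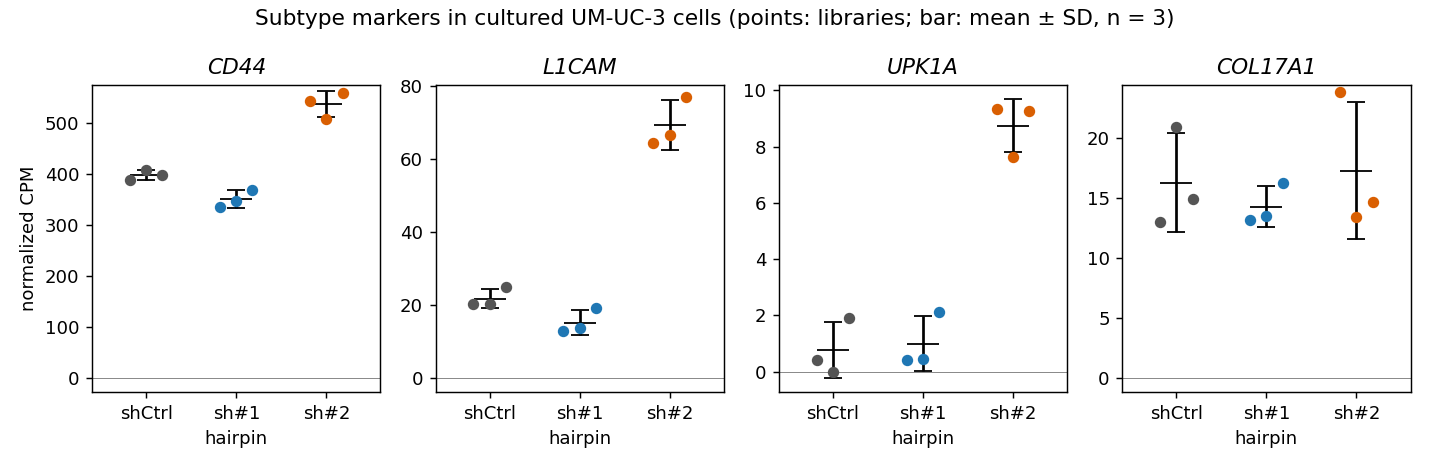
Normalized CPM of *CD44*, *L1CAM*, *UPK1A* and *COL17A1* in cultured UM-UC-3 cells by hairpin; points are libraries and bars are mean ± SD (n = 3). The sh#2 points lie above all others for *CD44*, *L1CAM* and *UPK1A* (means 536, 69.2 and 8.74), and the *COL17A1* groups overlap.

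Between the hairpins, sh#2 exceeded sh#1 by 0.61 (SE 0.06) on the log2 scale for *CD44*, by 2.18 (SE 0.16) for *L1CAM*, by 3.00 (SE 0.51) for *UPK1A* and by 0.27 (SE 0.23) for *COL17A1*. Of the 4 genes, 3 had sh#2 libraries wholly above the sh#1 libraries, where 19.4% of all 9859 genes tested did. The same 3 genes had sh#2 wholly above shCtrl, against 23.7% of all genes, and *CD44* and *L1CAM* had sh#1 wholly below shCtrl, against 17.8%. Since the genes were chosen for these differences, nothing is read from the shares.

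The study compared both hairpins, pooled as CDH11 KD, with shCtrl. For the 4 markers this used the same cultured libraries whose differences between hairpins chose the genes, so the values are a description and no test of the markers is drawn from them. *CD44* had a log2 fold change of 0.16 (SE 0.17) over 6 KD and 3 shCtrl libraries, and 0.092 without the first and 0.082 without the third sh#2 library. *L1CAM* had 0.93 (SE 0.72), *UPK1A* 2.49 (SE 1.19) and *COL17A1* -0.04 (SE 0.22). Without the third shCtrl library *UPK1A* had 4.22, and *COL17A1* ran from -0.19 to 0.18 with 1 library left out, above 0 without the second shCtrl, the first or the second sh#1 or the second sh#2 library. The KD libraries of *L1CAM* held both the low sh#1 and the high sh#2 values. At a q value of 0.05, edgeR called 17.4% of the genes tested and 0 of the 4 markers, from which nothing is read. That share was 8.81% to 9.71% when 1 of the shCtrl libraries was left out.

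In a fit of 3 groups, which takes the difference between hairpins out of the spread, the mean of both hairpins against shCtrl had a log2 fold change of 0.58 (SE 0.15) for *L1CAM* and 1.89 (SE 0.62) for *UPK1A*. That fit called 33.4% of all genes, both of these among them, and nothing is read from those calls either. For *L1CAM* this mean joined a hairpin below shCtrl with one above it, and *UPK1A* had passed the low-count filter through its sh#2 libraries alone.

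**Figure D2:**
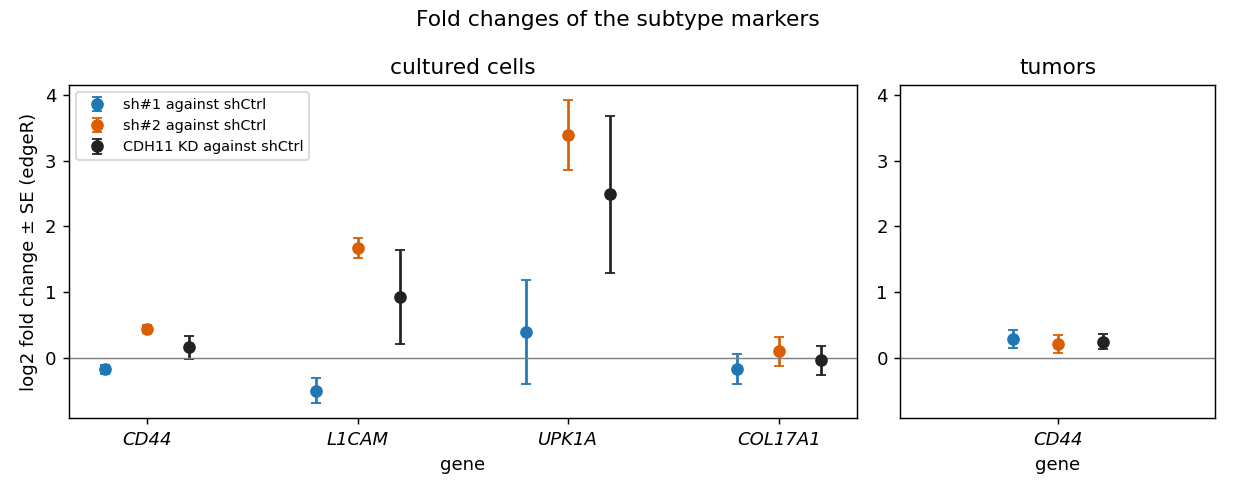
Log2 fold change ± SE (edgeR) of each marker for sh#1, sh#2 and CDH11 KD against shCtrl in cultured cells, and of *CD44*, the 1 marker that passed the low-count filter, in tumors. In culture the sh#1 and sh#2 values lie on opposite sides of 0 for *CD44* and *L1CAM*, and in tumors those of *CD44* lie at 0.28 and 0.21.

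Across the 9 cultured libraries *CD44* and *L1CAM* moved closely together (Pearson r of log2 CPM 0.987, and 0.680 once each group's mean was removed). *UPK1A* had an r of 0.922 to *L1CAM* (within groups 0.851) and of 0.869 to *CD44* (0.396), and *COL17A1* had lower r over all libraries, 0.388 to *CD44* (within groups 0.547), 0.283 to *L1CAM* (0.014) and 0.199 to *UPK1A* (-0.012). These correlations describe 9 points in 3 groups and carry no p. By the same measure the genes most like *CD44* among 8109 with a mean of at least 20 counts were *L1CAM*, *SEPTIN6*, a septin (0.982), and *DNAJB1*, an Hsp40 chaperone (0.979). Those most like *L1CAM* were *SEPTIN6* (0.991), *TENM2*, a teneurin (0.989), and *CD44*. For *UPK1A* they were *MKRN1*, a ubiquitin ligase (0.985), *SLFN5* (0.974) and *SERINC3* (0.964). An r above 0.9 was found for 140 of 8109 genes to *CD44* and for 100 of 8110 to *UPK1A*. For *COL17A1* only *ELOF1* did (0.905), followed by *PGM3* (0.875) and *ACO1* (0.825).

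The other subtype markers gave little to set beside these. Of the 30 in the panel, 4 were tested in culture, all of them described here, 22 had at least 1 count and 8 had 0 counts in all 9 libraries. Among the basal markers, the keratin genes *KRT14* and *KRT6A* had 0 counts and *KRT5* had 1, in contrast to 9048 for *CD44* and 341 for *COL17A1*. Among the luminal markers, the transcription factor genes *PPARG*, *GATA3* and *FOXA1* had 38, 33 and 19 counts in all, the receptor gene *FGFR3* had 22, *UPK2*, another uroplakin gene, had 2, *KRT20* had 1 and *SNX31* had 0, beside 69 for *UPK1A*. The *UPK2* counts were both in shCtrl, so *UPK1A* was counted in sh#2 without it. Among the immune markers *CD274*, which encodes PD-L1, had 9 counts in shCtrl, 11 in sh#1 and 15 in sh#2, and the others beside *L1CAM* had 0 to 9 counts in all. The squamous marker *PI3*, an elastase inhibitor, had 2, 16 and 6 counts in the same order.

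The line was also checked against epithelial and mesenchymal markers. *EPCAM* and *CDH1* had 0 counts in culture, while *KRT8* and *KRT18* and the mesenchymal genes *VIM*, *ZEB1* and *CDH2* were counted in every group. *VIM*, encoding vimentin, rose in sh#2 (log2 fold change 0.87, SE 0.06, edgeR q value 1.91e-19), and *FN1*, encoding fibronectin, and *CDH2*, encoding N-cadherin, fell in sh#1, with -1.53 (SE 0.32, q value 0.000202) and -0.58 (SE 0.14, q value 0.00207). In sh#1, 2 of the 4 mesenchymal genes fell and 0 rose, where 10.6% and 11.8% of all genes did, and the other 2 had 0.08 (*VIM*, SE 0.06) and 0.07 (*ZEB1*, SE 0.10). In sh#2, *VIM* alone was called of the 4, where 19.5% of all genes rose. Against sh#1, 2 of the 4 were higher in sh#2, where 13.5% of all genes were, and all 4 lay above 0. These 2 were *FN1* (1.79, SE 0.32, q value 1.44e-05) and *VIM* (0.79, SE 0.06, q value 3.89e-17). In sh#1, 1 of 3 epithelial genes tested rose and 0 fell, where 11.8% and 10.6% of all genes did, and 2 of the 3 lay above 0. The 1 that rose was *KRT18* (0.54, SE 0.08, q value 2.68e-07). In sh#2, 0 of the 3 rose and 0 fell, where 19.5% and 18.8% of all genes did. *KRT18* was lower in sh#2 than in sh#1 (-0.44, SE 0.08, q value 1.63e-05). Their part in the levels of the 4 subtype markers was not tested.

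Genes that work with each marker were read from 4 lists, of which 47 genes beside the markers themselves were tested in culture out of 89. Between sh#2 and sh#1, 18 rose and 5 fell, where 13.5% and 11.2% of all genes tested did. Against shCtrl, 5 rose and 13 fell in sh#1 (all genes 11.8% and 10.6%), and 14 rose and 9 fell in sh#2 (19.5% and 18.8%). The lists were drawn up with results of these data known.

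Of 27 partners of *CD44*, 16 were tested. In sh#2 8 rose and 2 fell, where 19.5% and 18.8% of all genes did. The median log2 fold change of the 16 was 0.30, against -0.01 over all genes. *MMP9* and *MMP14*, metalloproteinases that dock on or cleave CD44, rose by 1.31 (SE 0.22, edgeR q value 2.07e-06) and 0.39 (SE 0.10, q value 0.00103) in sh#2. *MSN*, encoding moesin, which links CD44 to actin, fell in sh#1 (-0.36, SE 0.06, q value 1.71e-05) and rose in sh#2 (0.34, SE 0.06, q value 1.68e-05), the same sides of shCtrl on which *CD44* lay. The partner gene *RDX* also fell in sh#1 (-0.20, SE 0.07, q value 0.0241), a call lost in 4 of 9 fits without 1 library. *EZR* went the other way and rose in sh#1 (0.28, SE 0.09, q value 0.0182), a call lost in 3 of 9 such fits. *NF2*, encoding merlin, a relative of moesin that binds the CD44 tail, fell in sh#2 (-1.32, SE 0.16, q value 1.46e-09). *KHDRBS1*, encoding the splicing factor Sam68, which acts on CD44 exons, rose in sh#2 (0.71, SE 0.07, q value 3.03e-13). *HYAL2*, a hyaluronidase, fell in both, by 0.84 in sh#1 and by 1.28 in sh#2, and as CDH11 KD by 1.03 (SE 0.22, q value 0.00400). In sh#1 4 *CD44* partners rose and 3 fell, where 11.8% and 10.6% of all genes did, with a median of -0.07. *SRGN*, encoding serglycin, a proteoglycan ligand of CD44, was among those that rose (0.59, SE 0.11, q value 4.70e-05).

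Of 23 partners of *L1CAM*, 13 were tested. *ITGB3*, encoding an integrin subunit that binds L1CAM, rose in sh#2 (1.70, SE 0.24, edgeR q value 6.67e-08), the group in which *L1CAM* was high, from 6.33 ± 0.96 (SD, n = 3) normalized CPM in shCtrl and 8.44 ± 0.18 in sh#1 to 20.7 ± 1.64. *NFASC*, encoding neurofascin of the same L1 family, rose in sh#2 (1.06, SE 0.40, q value 0.0290), a call that 4 of 9 fits without 1 library did not make, with a q value up to 0.152. *CSNK2A1*, a casein kinase 2 subunit that phosphorylates L1CAM, fell in sh#1 (-0.26, SE 0.07, q value 0.00364) and in sh#2 (-0.36, SE 0.07, q value 5.29e-05). The sheddase gene *ADAM10* rose in sh#2 over sh#1 by 0.41 (SE 0.12, q value 0.00551).

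Beside *UPK1A*, 12 of 25 uroplakin and tetraspanin genes were tested. *CD82*, a tetraspanin gene, took the order of *CD44* and *L1CAM*: its mean normalized CPM was 10.2 ± 2.48 (SD, n = 3) in sh#1, 23.5 ± 4.19 in shCtrl and 43.1 ± 1.40 in sh#2. It fell in sh#1 (log2 fold change -1.20, SE 0.20, edgeR q value 7.91e-06) and rose in sh#2 (0.88, SE 0.16, q value 1.21e-05). *CD81*, *CD9* and *TSPAN4* fell under both hairpins, with log2 fold changes of -0.55, -0.37 and -0.51 (sh#1) and of -0.29, -0.42 and -0.42 (sh#2). *TSPAN14* fell in sh#2 (-0.80, SE 0.20, q value 0.00115).

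Beside *COL17A1*, 9 of 17 genes of hemidesmosomes and the basement membrane were tested, and here genes moved while *COL17A1* itself showed no difference beyond its spread. *PLEC*, encoding plectin, which ties hemidesmosomes to keratin, fell under both hairpins, from 240.6 ± 4.72 (SD, n = 3) normalized CPM in shCtrl to 127 ± 3.75 in sh#1 and 89.9 ± 4.82 in sh#2. Its log2 fold change was -0.92 (SE 0.08, edgeR q value 6.98e-15) in sh#1, -1.42 (SE 0.08, q value 2.22e-21) in sh#2 and -1.14 (SE 0.13, q value 9.13e-06) as CDH11 KD. *LAMA5*, a laminin chain of many basement membranes, also fell under both hairpins. Its log2 fold change was -0.82 (SE 0.24, q value 0.00925) in sh#1 and -0.97 (SE 0.26, q value 0.00185) in sh#2. The sh#1 call was lost in 2 of 9 fits without 1 library. *LAMB3*, a chain of the laminin bound by hemidesmosomes, rose in sh#1 (1.17, SE 0.23, q value 0.000125), and the integrin genes *ITGA6* and *ITGA3* fell in sh#1 by 0.53 (SE 0.14) and 0.41 (SE 0.08). *LAMB1*, another laminin chain, rose in sh#2 (0.55, SE 0.15, q value 0.00387), a call lost without 1 of 9 libraries at a q value of 0.0547.

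As CDH11 KD, 5 of the 47 partner genes rose and 9 fell in culture, against 9.12% and 8.32% of all genes tested. Of these 14, only *HYAL2* and *PLEC* passed in every fit that left out 1 library.

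**Figure D3:**
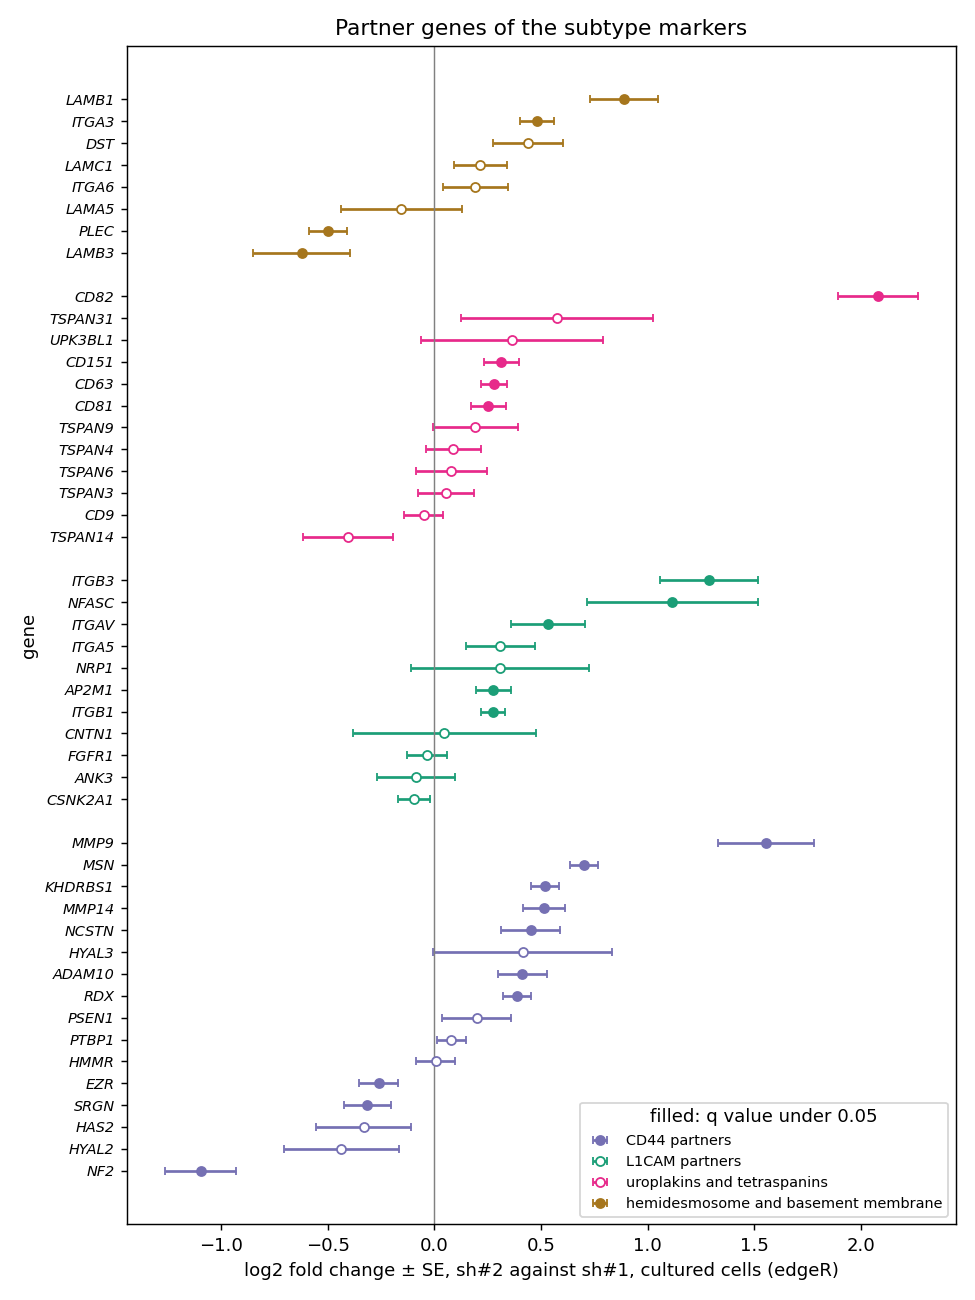
Log2 fold change ± SE of sh#2 against sh#1 in cultured cells (edgeR) for the 47 tested partner genes, grouped by list, each gene drawn once in the first list that holds it; filled points passed a q value of 0.05. *CD82* (2.08) and *MMP9* (1.56) lie farthest to the right and *NF2* (-1.10) farthest to the left.

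In tumors the 3 groups overlapped for each of the 4 markers. *CD44* passed the low-count filter and was tested, and the other 3 markers had 0 to 11 human counts per tumor. *CD44* had 312, 243, 221, 315 and 107 counts in shCtrl tumors, 110, 247, 236, 304 and 311 in sh#1, and 216, 191, 373, 238 and 116 in sh#2. Its normalized CPM were 250, 263, 252, 280 and 164 in shCtrl, 305, 279, 250, 331 and 314 in sh#1, and 307, 257, 357, 254 and 222 in sh#2. The groups overlapped throughout, and the fifth shCtrl tumor lay below all others. Mean levels were 242 ± 45.2 (SD, n = 5) in shCtrl, 296 ± 31.5 in sh#1 and 279 ± 53.2 in sh#2.

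*CD44* did not pass a q value of 0.1 in any tumor comparison. Its log2 fold change was 0.24 (SE 0.12, unadjusted p 0.0471, edgeR q value 0.385) as CDH11 KD, 0.28 (SE 0.13, q value 0.418) for sh#1, 0.21 (SE 0.13, q value 0.530) for sh#2 and -0.07 (SE 0.13, q value 0.907) for sh#2 against sh#1. The share of genes called was 1.51%, 1.48%, 2.68% and 1.19% in these comparisons, of 9184 genes tested. Without the fifth shCtrl tumor, the CDH11 KD value fell to 0.13, that of sh#1 to 0.17 and that of sh#2 to 0.09, each less by over 1.5 times. That of sh#2 was also 0.09 without the third sh#2 tumor, the one with the most *CD44*. The exact permutation test gave p values of 0.0736, 0.0714, 0.317 and 0.508 in the order above.

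*L1CAM* had 4, 2, 3, 9 and 1 counts in shCtrl tumors, 10, 6, 5, 10 and 7 in sh#1, and 2, 5, 11, 4 and 3 in sh#2. In normalized CPM these were 3.21, 2.16, 3.42, 8.0 and 1.53 in shCtrl, 27.7, 6.78, 5.30, 10.9 and 7.07 in sh#1, and 2.84, 6.72, 10.5, 4.27 and 5.73 in sh#2. Here sh#1 held the higher values, the reverse of its place in culture, and all 3 groups overlapped. The value of 27.7 came from the first sh#1 tumor, which had 414849 human counts, the least of all, and 30% mouse counts, so that 3 counts stood for 8.32 normalized CPM in it. Group means were 3.67 ± 2.54 (SD, n = 5), 11.6 ± 9.28 and 6.02 ± 2.92.

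Below the filter *L1CAM* was tested by exact permutation of log2 CPM alone, as were *UPK1A* and *COL17A1*, in 16 two-sided tests over tumors, *CD44* included, whose p values were not adjusted. For *L1CAM* the difference was 1.10 for sh#1 against shCtrl (p 0.0317 of a smallest possible 0.00794) and 0.80 for CDH11 KD (p 0.0383). That of CDH11 KD had a p under 0.05 in 9 of 15 such exact permutation tests with 1 tumor left out, with p values up to 0.110, which was without the fifth shCtrl tumor. Without the first sh#1 tumor it was 0.77 for sh#1 (p 0.0556), and without the first, the second, the third or the fifth shCtrl tumor the p was 0.0635, so that 5 of 10 such exact permutation tests had a p under 0.05. For sh#2 the permutation p was 0.159, and for sh#2 against sh#1 it was 0.175. With no filter, edgeR gave *L1CAM* q values of 0.411 as CDH11 KD and 0.288 for sh#1.

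*UPK1A*, present in every cultured sh#2 library, was at 0 counts in all 5 sh#2 tumors. The shCtrl tumors had 0, 1, 2, 1 and 0 counts and the sh#1 tumors 0, 0, 1, 0 and 0. A count of 0 allows up to 3 counts, or 2.87 to 5.73 normalized CPM in the sh#2 tumors, below the cultured sh#2 mean of 8.74, although the 2 tables were made separately. All groups lay at or under that floor, so no fold is given. The exact permutation p was 0.0403 for CDH11 KD and 0.167 for sh#2 against shCtrl, and the former rose to 0.121 without the second or the third shCtrl tumor and to 0.0659 without the fourth.

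*COL17A1* had 7, 1, 5, 6 and 0 counts in shCtrl tumors, 1, 0, 5, 5 and 3 in sh#1, and 3, 4, 1, 1 and 3 in sh#2. The groups overlapped, with means of 3.55 ± 2.77 (SD, n = 5), 3.31 ± 2.23 and 3.48 ± 2.32 normalized CPM. Its permutation p values were 0.905 to 0.977.

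**Figure D4:**
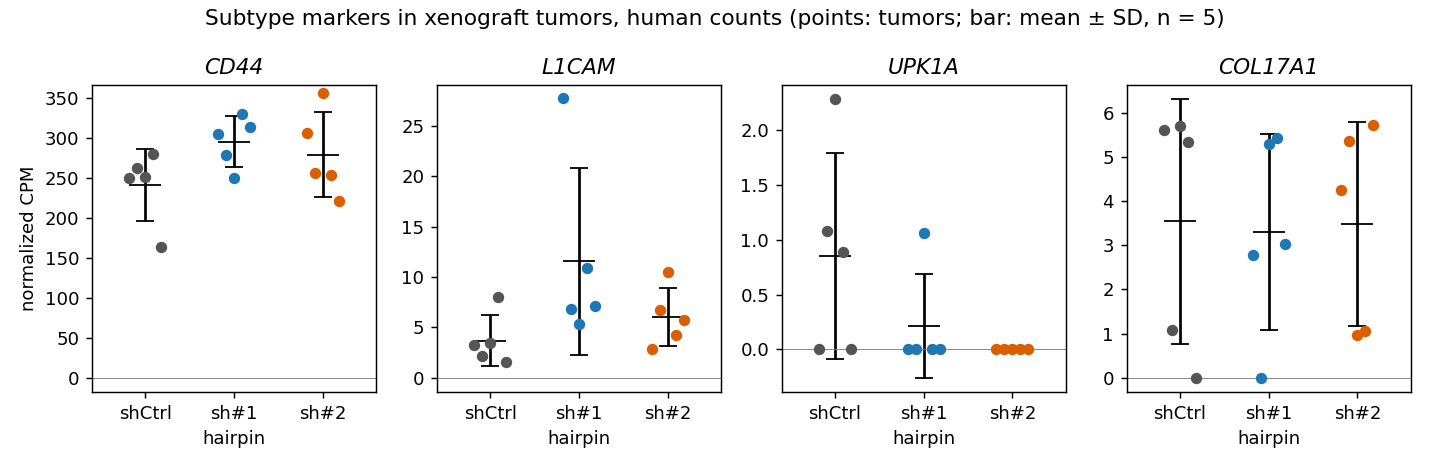
Normalized CPM of the 4 markers in xenograft tumors by hairpin, from human counts; points are tumors and bars are mean ± SD (n = 5). *L1CAM* has 1 sh#1 tumor at 27.7 with all others at 10.9 or below, and *UPK1A* is at 0 in all sh#2 tumors.

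Side by side, mean normalized CPM in shCtrl cells was 397 in culture and 242 in tumors for *CD44*, 21.6 and 3.67 for *L1CAM*, 0.766 and 0.850 for *UPK1A*, and 16.3 and 3.55 for *COL17A1*. The tables came from separate sequencers and pipelines, so these levels were not compared by a test. Of the 30 subtype markers, 1 was tested in tumors, 23 had at least 1 count and 7 were not in the table. Among the basal markers *KRT5* had 17 counts over all tumors, beside 45 for *COL17A1*, and *KRT14* and *KRT6A* were not in the table. *TP63*, encoding a transcription factor of basal cells and a squamous marker of the panel, had 25. The luminal markers *PPARG*, *GATA3* and *FOXA1* had 63, 50 and 40. The luminal infiltrated marker *PGM5* had 91 and the immune marker *CD274* had 54.

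Over the 15 tumors the genes most like *CD44* were *PERP*, a desmosomal membrane protein gene (r 0.878), *IKBIP* (0.830) and *ARNT*, the partner of the hypoxia-inducible factors (0.820), and 0 of 6444 genes had an r above 0.9. Of the partner lists, 43 genes were tested in tumors, and 0 were called as CDH11 KD by edgeR, where 1.51% of all genes were, and nothing is read from the 0. At an unadjusted p of 0.05, 8 of the 43 passed, where 12.7% of all genes did. DESeq2 called 2, *LAMB3* and *DST*, named after their values were seen, where it called 1.79% of all genes. By hairpin, edgeR called 1 in sh#1 and 2 in sh#2, where 1.48% and 2.68% of all genes were called. *SRGN* rose in sh#1 (0.48, SE 0.13, q value 0.0586), and *ITGAV* (0.70, SE 0.19, q value 0.0591) and *ITGA6* (0.73, SE 0.18, q value 0.0303), integrin subunit genes, rose in sh#2. In sh#2 over sh#1, *ITGAV* (0.80, SE 0.20, q value 0.0578) and *LAMB1* (0.65, SE 0.18, q value 0.0753) rose. Each of these calls was lost in 3 to 7 of 15 fits that left out 1 tumor. *PLEC*, which fell in culture under both hairpins, had mean normalized CPM of 468 ± 85.6 (SD, n = 5) in shCtrl tumors, 405 ± 46.8 in sh#1 and 468 ± 46.9 in sh#2.

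The mouse host could hold the same genes. Mouse *Cd44* had 7 to 49 counts per tumor and did not pass in any comparison, with a log2 fold change of 0.39 (SE 0.27, edgeR q value 0.902) as CDH11 KD, where 0 of 1669 mouse genes were called. At an unadjusted p, *Cd44* had 0.157 there. Mouse *L1cam* had 2 counts and *Col17a1* 1 over all 15 tumors, and *Upk1a* was not listed. Of 4 mouse skin markers, *Krt10* had 20 counts in all, 14 of them in 1 shCtrl tumor, *Krt14* had 1, and *Krt5* and *Epcam* were not listed. Summed over 3 fibroblast markers (*Col1a1*, *Col1a2*, *Dcn*), mouse normalized CPM spanned 5495 to 15355 (shCtrl tumors), 1408 to 9742 (sh#1) and 5723 to 18681 (sh#2). Over 3 leukocyte markers (*Lyz2*, *Cd68*, *Ptprc*) the sum spanned 1858 to 4683 (shCtrl), 1875 to 2961 (sh#1) and 2180 to 5019 (sh#2). The first sh#1 tumor, which held the *L1CAM* value of 27.7, stood apart in its host RNA. It had the lowest fibroblast sum, the lowest *Lyz2* (620) and the highest *Cd68* (911) and *Ptprc* (344) of the 15 tumors. Its 3 skeletal muscle markers were also the highest, with 509 counts of *Acta1*, 323 of *Myh4* and 111 of *Ckm*, and a sum of 7215 normalized CPM against 1275 or less in the others. The part of these cells in its *L1CAM* value was not tested. How reads were parted between the species is not given in the sources used here, and any effect on human *CD44* was not tested beyond a fit that added each tumor's mouse-to-human ratio, in which the CDH11 KD value of *CD44* was 0.24 (q value 0.500).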

How the data were processed

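Total RNA was sequenced as single 75-base reads, on a NextSeq 500 (cultured cells) or a NovaSeq6000 (tumors), and mapped to hg38 by the authors with RaNAseq or HISAT2. The deposited tables hold raw counts per gene, human and mouse separately for tumors. The counter, strand setting and split of reads by species are not given in the sources used here. Of the cultured genes, 13 without values were not analysed. Counts were fitted with edgeR 4.0.16 (R 4.3.3, limma 3.58.1) after filterByExpr and TMM, by quasi-likelihood tests with Benjamini-Hochberg q values over all genes, at the q value thresholds of the study (0.05 in culture, 0.1 in tumors). To select cultured genes for enrichment analysis, the study also set a limit on the fold change, which was not used here. CPM for display and log2 CPM (prior count 2) used TMM library sizes. The edgeR tests were also run on simulated counts, the outcome of which is not given here. DESeq2 1.42.0, upper quartile scaling, other filters, a replicate block, left-out libraries and exact permutation were alternatives. The members and gene lists were chosen with earlier results of these data known. Named genes were the markers, *CDH11*, the 3 genes most like each marker, called genes of each list (at most 6 a fit), counted subtype markers and mouse orthologs. Same-numbered libraries were treated as unpaired. Their deviations from the group means correlated from -0.029 to 0.087 in culture and from -0.141 to 0.171 in tumors. These values do not settle whether same-numbered libraries were prepared together. Replicate libraries differed by more than sampling noise.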

Additional observations from a re-analysis of the deposited data

Results flagged for a closer look

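In culture and in tumors some markers lay on opposite sides of shCtrl, a difference that was not tested. *CD44* and *L1CAM* in sh#2 did not: each lay above the shCtrl mean in 3 of 3 cultured libraries and in 4 of 5 tumors. *CD44* in sh#1 had all 3 cultured libraries below the shCtrl mean (mean 350 normalized CPM) and all 5 tumors above it (mean 296). Without the fifth shCtrl tumor, 4 of the 5 lay above a shCtrl mean of 261. *L1CAM* in sh#1 did likewise, with means of 15.1 in culture and 11.6 in tumors, and the latter was 7.51 without the first sh#1 tumor. *UPK1A* in sh#2 had all 3 cultured libraries above the shCtrl mean (mean 8.74) and all 5 tumors below it (mean 0.0), a shCtrl tumor mean that rests on 4 counts. A tumor with 0 counts lies below any mean above 0 by construction, so the tumor side shows nothing for *UPK1A*.

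By Dixon's test, which chance passes in about 1 in 20 groups of normal values, the fifth shCtrl tumor lay apart for *CD44* (164 normalized CPM) and the first sh#1 tumor for *L1CAM* (27.7), among 11 groups examined. The third sh#1 tumor passed it for *UPK1A* (1.06) as well, but with 1 count beside tumors at 0 the test passes by construction and shows nothing.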

How the results depend on the processing

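*CD44* kept its direction in all alternatives of all comparisons, and edgeR did not call it in tumors under any of them; in culture, as CDH11 KD, it ran from 0.082 to 0.23 with 1 library left out. Results for the other markers moved as follows. As CDH11 KD in culture, where the same libraries chose the genes and the counts are no independent test, a fit of 3 groups put 2 markers past the threshold, *L1CAM* (0.58) and *UPK1A* (1.89), in place of 0, and 3291 genes in place of 1719. With 1 library left out, log2 fold changes in culture ran from -0.19 to 0.18 (*COL17A1*, CDH11 KD, sign changed in 4 of 9), from 1.96 to 4.22 (*UPK1A*, CDH11 KD), from -0.72 to -0.39 (*L1CAM*, sh#1), from -0.82 to 2.12 (*UPK1A*, sh#1), from -0.31 to 0.043 (*COL17A1*, sh#1), from 2.86 to 5.12 (*UPK1A*, sh#2), from -0.21 to 0.31 (*COL17A1*, sh#2), and for sh#2 against sh#1 from 2.06 to 2.40 (*L1CAM*), from 2.64 to 4.21 (*UPK1A*) and from -0.036 to 0.42 (*COL17A1*). In tumors, where exact permutation of log2 CPM stood in for edgeR below the filter, edgeR with no filter did not call *L1CAM* (CDH11 KD 0.97, sh#1 1.26), and *COL17A1* changed sign (CDH11 KD -0.26, sh#2 -0.34, sh#2 against sh#1 -0.14). With 1 tumor left out, an alternative chosen after seeing the data, *L1CAM* differences ran from 0.62 to 1.02 (CDH11 KD), 0.77 to 1.32 (sh#1) and 0.32 to 0.72 (sh#2), *UPK1A* from -0.45 to -0.20 (CDH11 KD) and -0.50 to -0.25 (sh#2), sizes that the prior count of 2 sets at 0 to 2 counts a tumor and that are no folds, and *COL17A1* from -0.27 to 0.17 (CDH11 KD), -0.30 to 0.28 (sh#1), -0.24 to 0.23 (sh#2) and -0.23 to 0.23 (sh#2 against sh#1). The exact permutation test was not run for cultured hairpins, whose differences chose the genes. The cause of these shifts was not tested.

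Counts of genes called moved by over 1.5 times in culture with DESeq2 (sh#1 2209 to 1346, sh#2 against sh#1 2431 to 1543) and, as CDH11 KD, without 1 shCtrl library (963, 974 and 882 without the first, the second and the third), and in tumors with no filter (CDH11 KD 139 to 276, sh#1 136 to 243, sh#2 against sh#1 109 to 173), with at least 10 counts in every library (sh#1 89, sh#2 against sh#1 63), with a mouse ratio covariate (CDH11 KD 86), in a fit of 3 groups (227) and with 1 tumor left out (CDH11 KD 48 to 399, sh#1 69 to 287, sh#2 246 to 126 and 552, sh#2 against sh#1 44 to 144). Of the list genes called in culture, 15 of 21 (sh#1), 16 of 24 (sh#2), 18 of 26 (sh#2 against sh#1) and 2 of 14 (CDH11 KD) passed in every fit without 1 library; in tumors 0 of 5 did. As a replicate block, the replicate number, which is not known to pair the samples, gave *CD44* 0.16 and *L1CAM* 0.93 as CDH11 KD in culture and *CD44* 0.26 (edgeR q value 0.384) in tumors, and changed no call of a marker. In windows from 100 bases before to 50 after the start, the shares were 35.0% (GGGCGG), 12.3% (ACGTG), 10.4% (CACCTG), 7.09% (CATTCC), 4.37% (CACGTG) and 2.70% (TGACTCA). Depth limits *L1CAM*, *UPK1A* and *COL17A1* in tumors, where 3 counts stood for 2.41 to 8.32 normalized CPM.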
